A study of Mus musculus with 6 samples.

Results

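The expression of 10 adipogenic regulators and lipid handling genes was examined in cultured calvarial preosteoblasts, the precursors of bone-forming osteoblasts. The members were the transcription factors *Pparg*, *Cebpa*, *Cebpb* and *Cebpd*, the fatty acid carriers *Fabp4* and *Fabp5*, the uptake genes *Lpl* and *Cd36*, the lipid droplet coat gene *Plin2* and the adipocyte hormone gene *Adipoq*. They were chosen by symbol, and all 10 had a row among the 17001 rows of the expression table. The cells came from the skull vault of 3-day-old mice and fall into 3 control libraries with the genotype NELL2 fx/fx and 3 libraries labelled cKO with the genotype Col1-cre; NELL2 fx/fx. Both groups carry the floxed *Nell2* alleles, and only the cKO group carries Cre, which is driven by a Col1a1 promoter fragment and so acts in the osteoblast lineage. The labels name serum-containing α-MEM as the culture medium and no adipogenic inducer, and they do not say whether the replicates came from separate mice, so the p-values measure the spread between these libraries, which may be technical.

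Osteoblasts and adipocytes arise from common mesenchymal progenitors. In adipocyte differentiation, C/EBPβ and C/EBPδ are known to be induced early and to activate PPARγ and C/EBPα, which maintain each other and switch on genes of lipid uptake and storage. *Fabp4*, also called aP2, is a classical PPARγ target. *Fabp4*, *Cd36* and *Lpl* are also used by macrophages, and *Fabp4* and *Cd36* by capillary endothelium, so these genes mark adipocytes only together with others.

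Values are FPKM, fragments scaled to transcript length and to the mapped fragments of the library, so levels can be set side by side between genes, and they are given in the order of replicates 1, 2 and 3. The FPKM of a library summed to between 573307 and 606428, and the correlation between libraries over the tested rows was between 0.982 and 0.994, across genes that are not independent replicates. The number of reads is not carried by FPKM, and rows near 0 gave depths of 0.944 to 1 relative to control replicate 1, from 10 to 17 rows per library. The 10 osteoblast lineage markers summed to between 22990 and 24192 FPKM, with *Col1a1*, *Col1a2* and *Sparc* the highest of them, and the collagen genes did not separate the groups. The osteoblast markers *Ibsp*, *Bglap*, *Sp7* and *Alpl*, 4 of the 10, were lower under the cKO label at an unadjusted p under 0.05, where 7.76% of all tested rows were. The part of this in the values below was not tested. *Nell2* was 3.17, 2.59 and 1.88 FPKM across the controls. Under the cKO label it was 5.64, 1.61 and 5.74 FPKM. The targeted gene was thus not lower under the cKO label (log2 fold change 0.48, standard error 0.37, adjusted p = 0.591, limma), and a value per gene does not separate the floxed part, so directions follow the labels. The study reported the deletion in calvarial preosteoblasts from qRT-PCR and western blotting. Y-linked genes were expressed in control replicate 3 and, under the cKO label, in replicates 1 and 3, and summed to at most 0.29 FPKM in the others.

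Of the 10 members, *Fabp4* and *Fabp5* stood highest above control under the cKO label relative to their replicate spread, *Pparg* was also higher in each of these libraries, and *Cebpa*, *Cd36* and *Plin2* had means within 1.1-fold of control. *Adipoq* was near 0 in every library. Groups were compared on log2(FPKM + 1) with limma over the 11590 rows that reached 1 FPKM in 3 or more libraries, and the Benjamini-Hochberg adjustment covered all of them. No member passed an adjusted p of 0.05, and neither did any other row (0%), the smallest adjusted p being 0.312, while 1521 rows (13.1%) had an unadjusted p under 0.05. At an unadjusted p under 0.05, 3 of the 9 tested members were higher under the cKO label and 0 were lower, where 5.37% of all tested rows were higher and 7.76% lower. The members and the lists below were chosen with earlier results of these data known. Counts of them therefore describe the values and are no test of a set. The median log2 fold change was 0.35 over the 9 members and -0.02 over all tested rows. All 9 tested members reached 1 FPKM in all 6 libraries, so the filter did not select them through 1 group.

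**Figure D1:**
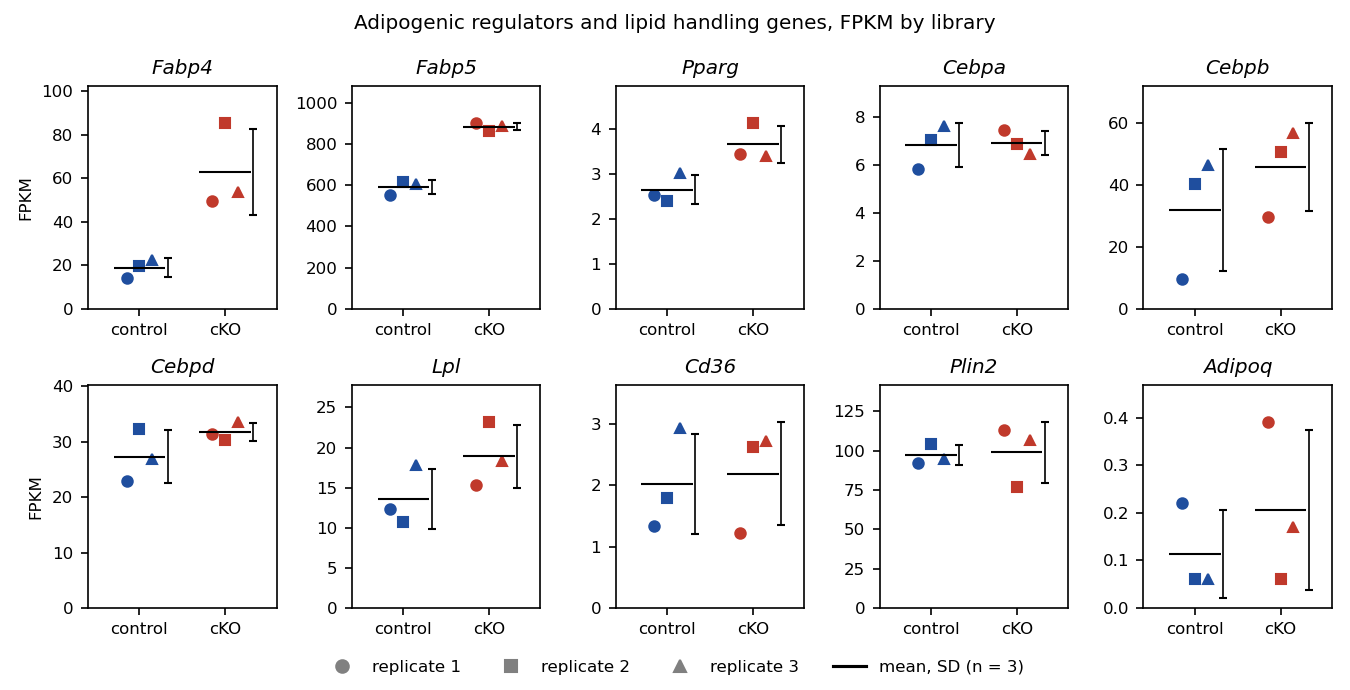
FPKM of each member (vertical axes, linear and starting at 0) in the control libraries and the libraries labelled cKO, with symbols for replicates 1 to 3 and a line and bar for the mean and SD (n = 3). For *Fabp4*, *Fabp5* and *Pparg* the groups do not overlap, for *Cebpb* control replicate 1 lies apart at 9.5 FPKM, and *Adipoq* stays under 0.4 FPKM.

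*Fabp5*, which encodes an epidermal-type fatty acid carrier expressed in many cell types, was by far the most abundant member. Its FPKM was 555.73, 616.31 and 608.9 across the controls, against 902.36, 866.52 and 886.92 under the cKO label. Every library labelled cKO was above every control library, and each group was tight. The mean was 594 ± 33 FPKM (SD, n = 3) in control and 885 ± 18 FPKM (SD, n = 3) under the cKO label, a ratio of 1.49. The log2 fold change was 0.58 (standard error 0.07, 95% interval 0.42 to 0.73, adjusted p = 0.312, limma), and its unadjusted p was the smallest of the 11590 rows. Its average FPKM exceeded that of 99.2% of the rows, and it made up 73.3% to 78.2% of the summed FPKM of the 10 members in each library. In GENCODE M21 on GRCm38, *Fabp5* occupies positions 10012548 to 10016607 of chromosome 3, plus strand, with 4 exons. That annotation also holds *Fabp5l2*, a processed pseudogene of *Fabp5*, and how reads shared with it were counted is not stated in the sources used here.

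*Fabp4* had the largest fold difference of the tested members. Its FPKM was 13.91, 19.79 and 22.45 across the controls, against 49.33, 85.35 and 53.6 under the cKO label. The lowest of these last values was more than 2-fold above the highest control, with the library labelled cKO replicate 2 the highest of all. The mean was 18.7 ± 4.4 FPKM (SD, n = 3) in control and 62.8 ± 19.7 FPKM (SD, n = 3) under the cKO label, a ratio of 3.35. The log2 fold change was 1.68 (standard error 0.24, 95% interval 1.10 to 2.25, adjusted p = 0.312, limma), and its unadjusted p ranked 3 of the 11590 rows. *Fabp4* is among the adipogenic genes the study chose to show from these same libraries, so its direction is not independent evidence. Separately, the study reported more oil red O staining and raised adipogenic factors in mutant preosteoblasts, there after adipogenic induction. Without the library labelled cKO replicate 1, 334 of 11522 rows passed an adjusted p of 0.05, against 0 with all 6 libraries. Both carriers were then among them, with an adjusted p of 0.0314 for *Fabp4* (0.0314 to 0.671 over the alternatives) and 0.0291 for *Fabp5* (0.0291 to 0.671 over the alternatives, limma).

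The fold difference of *Fabp4* exceeded that of *Fabp5* in these libraries. The ratio of *Fabp5* to *Fabp4*, taken per library, was 40.0, 31.1 and 27.1 across the controls and 18.3, 10.2 and 16.5 under the cKO label, so these ranges did not overlap. On the log2 scale *Fabp4* over *Fabp5* was higher by 1.15 under the cKO label (exact two-sided permutation p = 0.1, which is the smallest that 3 against 3 libraries allow). *Fabp4* lies on the same chromosome from 10204088 to 10208576 on the minus strand, 187.5 kb from *Fabp5*, and the genes *Pmp2* and *Fabp9* of the same family lie between them. In the window from 300 kb before *Fabp5* to 300 kb after *Fabp4*, the other genes that passed the filter were *Impa1*, *Zfand1* and *Snx16*, named here for their position. Their log2 fold changes were -0.01, 0.05 and 0.09 with adjusted p from 0.793 to 0.964 (limma), and 0 of the 3 had an unadjusted p under 0.05. *Pag1*, in the same window but outside the filter, was 0.56, 0.75 and 0.83 FPKM in control. Under the cKO label it was 0.85, 1.22 and 1.22 FPKM, without overlap. Of 10 fatty acid binding protein genes, 7 had a row and 4 were tested. Against 13.1% of all tested rows, 2 of the 4, *Fabp4* and *Fabp5*, had an unadjusted p under 0.05. Of the others, *Fabp3*, the heart-type carrier, was 27.02, 18.33 and 24.12 FPKM in control and 21.32, 28.33 and 29.14 FPKM under the cKO label. *Fabp7*, the brain-type carrier, was 1.9, 6.13 and 3.45 FPKM in control and 2.28, 1.96 and 2.94 FPKM under the cKO label. The groups overlapped for both, and *Pmp2* and *Fabp12* were at or below 0.29 FPKM throughout.

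**Figure D2:**
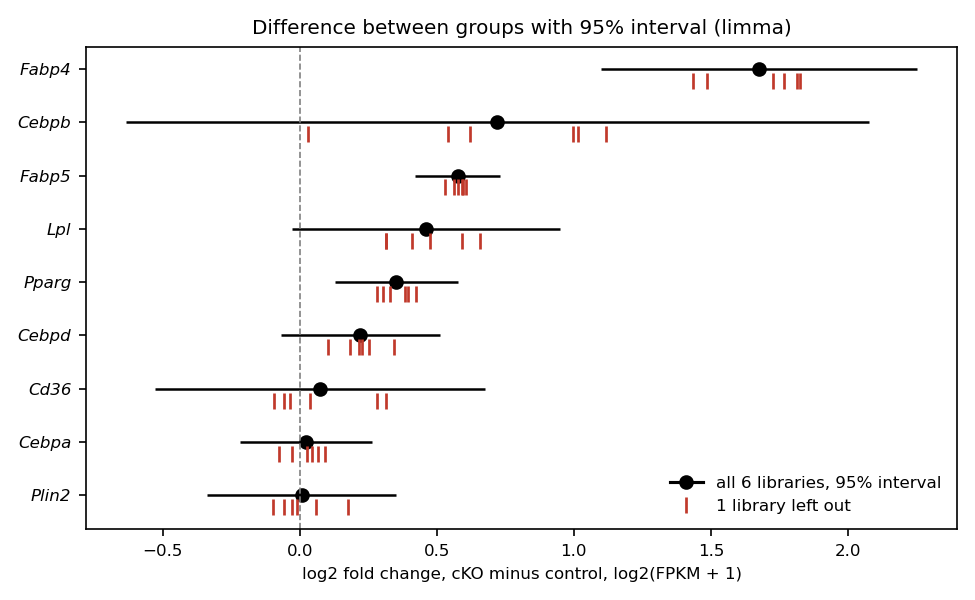
Log2 fold change of the 9 tested members on the log2(FPKM + 1) scale (horizontal axis, libraries labelled cKO minus control), with the 95% interval from limma and, as red ticks, the value obtained without each single library. The ticks of *Fabp5* lie between 0.53 and 0.60 and those of *Fabp4* between 1.44 and 1.83, while those of *Cebpb* run from 0.03 to 1.12.

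*Pparg*, the nuclear receptor required for adipocyte formation, was expressed at a low level. Its FPKM was 2.53, 2.4 and 3.01 across the controls and 3.45, 4.13 and 3.39 under the cKO label. The groups did not overlap, although the gap between 3.01 and 3.39 was small. The mean was 2.65 ± 0.32 FPKM (SD, n = 3) in control and 3.66 ± 0.41 FPKM (SD, n = 3) under the cKO label, and the log2 fold change was 0.35 (standard error 0.09, 95% interval 0.13 to 0.58, adjusted p = 0.312, limma). With *Fabp4* and *Fabp5*, it made up the 3 of 9 tested members whose groups did not overlap, all higher under the cKO label, where 6.51% of all tested rows were so. The ratio of *Fabp5* to *Pparg* was 220, 257 and 202 in control and 262, 210 and 262 under the cKO label, which overlap. That of *Fabp4* to *Pparg* was 5.50, 8.25 and 7.46 in control and 14.3, 20.7 and 15.8 under the cKO label, without overlap (exact two-sided permutation p = 0.1).

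*Pparg* lies on chromosome 6 from 115360951 to 115490399 on the plus strand, and the RefSeq table of GRCm38 lists 3 start sites for it. The FPKM is 1 value per gene and does not separate these starts. RefSeq promoters were found for 6 of the 10 members, and the other 4 are *Fabp4*, *Fabp5*, *Cebpd* and *Lpl*. The 250 bases upstream of the most downstream *Pparg* start, from which the adipocyte form PPARγ2 is transcribed, and of the *Cebpb* start are shown because they belong to the regulator that separated the groups and to the regulator that varied most between libraries. Both are written 5′ to 3′ on the gene's strand, at chr6:115421816-115422065 for *Pparg* and chr2:167688665-167688914 for *Cebpb*. Capitals mark the matches, on either strand, to the C/EBP letters TTGCNNAA, the CCAAT box CCAAT and the cAMP response element core TGACG.
Pparg, most downstream start: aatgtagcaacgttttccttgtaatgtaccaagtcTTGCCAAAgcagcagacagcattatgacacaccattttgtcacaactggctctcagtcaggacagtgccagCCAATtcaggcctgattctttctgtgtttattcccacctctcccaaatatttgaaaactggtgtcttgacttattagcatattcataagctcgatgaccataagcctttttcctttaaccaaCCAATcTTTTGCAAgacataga
Cebpb: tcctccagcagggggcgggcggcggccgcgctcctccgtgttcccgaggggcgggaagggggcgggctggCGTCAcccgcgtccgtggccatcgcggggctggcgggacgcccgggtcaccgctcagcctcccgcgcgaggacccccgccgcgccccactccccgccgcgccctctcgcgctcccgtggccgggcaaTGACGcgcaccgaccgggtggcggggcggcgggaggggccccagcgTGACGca
In the *Pparg* window TTGCNNAA begins 215 and 16 bases upstream of the start, and 9.57% of 32817 promoters of this length hold at least 1 match. CCAAT begins 144 and 22 bases upstream in the same window and is held by 33.8% of promoters. The *Cebpb* window holds TGACG 180, 53 and 7 bases upstream, letters that 17.75% of promoters hold. None of these matches overlap each other. The direct repeat known for PPAR binding was found in 0 of the 8 member windows and in 0.034% of all promoters. These are matches of letters, and no binding was measured.

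The groups overlapped for all 3 C/EBP members. *Cebpb*, an early activator of adipogenesis that also responds to stress and inflammation, was 9.5, 40.11 and 46.19 FPKM across the controls and 29.66, 50.59 and 56.69 FPKM under the cKO label. Control replicate 1 was lowest by a wide margin, the library labelled cKO replicate 1 was next, and the groups overlapped. The log2 fold change was 0.72 with an interval of -0.64 to 2.08 (adjusted p = 0.599, limma), and without control replicate 1 it was 0.03. *Cebpd*, induced alongside *Cebpb*, was 22.86, 32.25 and 26.83 FPKM in control and 31.4, 30.25 and 33.49 FPKM under the cKO label. Control replicate 2 lay among the cKO values, and the log2 fold change was 0.22 with an interval of -0.07 to 0.51 (adjusted p = 0.474, limma). *Cebpa*, which with PPARγ maintains the adipocyte state, was 5.82, 7.06 and 7.61 FPKM in control and 7.46, 6.87 and 6.44 FPKM under the cKO label. Its groups were interleaved, and the interval of the log2 difference, -0.22 to 0.26, excludes a change of the size seen for *Fabp4* or *Fabp5*. *Cebpb* (chromosome 2, 167688915 to 167690418), *Cebpd* (chromosome 16, 15887286 to 15891031) and *Cebpa* (chromosome 7, 35119293 to 35121928), all of 1 exon on the plus strand, overlap the genes *Tmem189*, *Spidr* and *Gm45091* on the opposite strand, and *Pparg* overlaps *Gm44079*. Whether counting used strand is not given in the sources used here, so reads of such pairs may not be told apart.

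Among lipid uptake and storage genes, the spread between libraries was as large as the difference between groups. *Lpl*, which encodes the lipase that frees fatty acids from lipoproteins, was 12.34, 10.68 and 17.78 FPKM across the controls and 15.38, 23.14 and 18.29 FPKM under the cKO label. Control replicate 3 was above the library labelled cKO replicate 1, and the log2 fold change was 0.46 with an interval of -0.03 to 0.95 (adjusted p = 0.395, limma). *Cd36*, a fatty acid translocase, was 1.34, 1.8 and 2.93 FPKM in control and 1.23, 2.62 and 2.73 FPKM under the cKO label. The highest and the lowest value of *Cd36* came from control replicate 3 and the library labelled cKO replicate 1, and the interval of the log2 difference was -0.53 to 0.68. *Plin2*, the droplet coat protein of most cell types, was 92.23, 104.46 and 94.8 FPKM in control and 112.86, 77.05 and 106.58 FPKM under the cKO label. It came next to *Fabp5* in abundance, above 95% of the rows of the table, with a log2 fold change of 0.01 (interval -0.34 to 0.35, adjusted p = 0.986, limma). In GRCm38 *Lpl* lies on chromosome 8 (68880491 to 68907448, plus strand), *Cd36* on chromosome 5 (17781690 to 17888801, minus strand) and *Plin2* on chromosome 4 (86648386 to 86670060, minus strand). *Plin2* was lowest in the library labelled cKO replicate 2, the library in which *Fabp4*, *Lpl* and *Pparg* were highest.

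*Adipoq*, which encodes adiponectin and is a defining gene of mature adipocytes, was 0.22, 0.06 and 0.06 FPKM across the controls and 0.39, 0.06 and 0.17 FPKM under the cKO label. All 6 values lie within 0.005 FPKM of 1, 3, 4 or 7 times a step of 0.0562 FPKM, the kind of spacing that a few fragments give, and the groups overlapped (exact two-sided permutation p = 0.7, smallest possible 0.1). *Adipoq* (chromosome 16, 23146536 to 23158028, plus strand) did not pass the filter and was not in the fit. *Plin1*, the droplet coat of adipocytes, was at most 0.1 FPKM and *Cidec*, which enlarges droplets, at most 0.07 FPKM. Of 12 adipocyte markers, 10 had a row and 3 passed the filter, with 0 of the 3 at an unadjusted p under 0.05. Of all tested rows 13.1% were, and 3 genes are too few to set against that share. The summed level of the 10 was 3.61 to 8.78 FPKM in control and 6.29 to 14.4 FPKM under the cKO label, and most of its range came from *Car3*, a carbonic anhydrase also known from muscle, at 0.37, 1.75 and 5.12 FPKM in control and 2.42, 9.9 and 8.71 FPKM under the cKO label. *Plin4*, another droplet coat gene of adipocytes, was 0.38, 0.22 and 0.25 FPKM in control and 0.39, 1.67 and 0.38 FPKM under the cKO label, highest in the library where *Fabp4* was highest. The hormone-sensitive lipase gene *Lipe* was between 1.52 and 1.84 FPKM and the glucose transporter gene *Slc2a4* between 0.74 and 1.24 FPKM in all libraries. The part of adipocyte RNA in the *Fabp4* values was not tested.

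Markers of other cells were set beside these values. The 10 macrophage markers, led by *Lyz2*, summed to 41.0 to 108.7 FPKM in control and 55.9 to 91.6 FPKM under the cKO label. Of the 8 tested, 0 had an unadjusted p under 0.05, against 13.1% of all tested rows. A higher mean log2 value under the cKO label was found for 7 of the 8 (median log2 fold change 0.20), and for 5128 of all 11590 tested rows. The other marker, *Csf1r*, had a log2 fold change of -0.11. Some genes known from macrophages but outside the list, picked here after their values were seen, were higher in every library labelled cKO than in every control. Their shared direction follows from that choice and is not a result, and 6.51% of all tested rows had the same order of groups. Mean FPKM was 0.563 in control and 4.42 under the cKO label for the chemokine gene *Ccl6*, 0.95 and 3.88 for the elastase gene *Mmp12*, 1.80 and 6.05 for *Wfdc17*, and 2.78 and 6.82 for *Lst1*, each with an adjusted p of 0.312 (limma). The control means of *Ccl6* and *Mmp12* lay under the 1 FPKM of the filter. *Apobr*, *F13a1* and *Lgals3*, picked in the same way, had the same order of groups. *Coro1a*, known from leukocytes, had the opposite order, with mean FPKM of 1.37 in control and 0.813 under the cKO label (adjusted p = 0.312, limma). The part of macrophage RNA in the *Fabp4*, *Lpl* and *Cd36* values was not tested. The 10 endothelial markers summed to 8.6 to 11.9 FPKM in control and 7.2 to 15.8 FPKM under the cKO label, with *Erg* the highest. *Pecam1* and *Kdr*, which define endothelium, were at most 0.73 and 0.42 FPKM. Macrophage and endothelial sums overlapped between the groups. The macrophage sum was 69.9, 41.0 and 108.7 FPKM across the controls and 55.9, 81.0 and 91.6 FPKM under the cKO label. The endothelial sum was 8.96, 8.58 and 11.9 FPKM across the controls and 7.22, 15.8 and 14.4 FPKM under the cKO label. Under the cKO label the endothelial sum ordered the libraries as *Fabp4* did, lowest in replicate 1 and highest in replicate 2. The macrophage sum was also lowest in replicate 1. In control both sums and *Fabp4* were highest in replicate 3. Over all libraries neither sum had the order of *Fabp4*. The part of endothelial RNA in the *Fabp4* and *Cd36* values was not tested. The 6 epithelial markers summed to 0.46, 3.61 and 13.4 FPKM in control and 42.7, 36.9 and 18.2 FPKM under the cKO label, without overlap. Of the 3 that passed the filter, *Epcam* did so only through the cKO label and is not counted. The others, *Krt8* and *Krt18*, had an unadjusted p under 0.05, as 13.1% of all tested rows did. *Krt8* overlapped between the groups, at 5.81 FPKM in control replicate 3 and 5.74 FPKM in the library labelled cKO replicate 3. The epithelial markers *Cdh1*, *Krt5* and *Krt14* were each at most 1.35 FPKM, and 1 to 3 of the 6 markers were listed at 0 in each control library, against 0 under the cKO label. *Epcam*, an epithelial adhesion molecule, was 0, 0.15 and 0.47 FPKM across the controls and 1.37, 1.58 and 1.21 FPKM under the cKO label, and its unadjusted p ranked 2 of all tested rows, between *Fabp5* and *Fabp4*. Because *Epcam* passed the filter only through the cKO label, this rank carries no weight. The part of epithelial RNA in the *Fabp5* and *Fabp4* values was not tested, and in such bulk samples a changed number of cells and a changed level per cell cannot be told apart. Pericyte and smooth muscle markers summed to 2675 to 2860 FPKM in control and 2481 to 2720 FPKM under the cKO label. Of the 7 tested, 2, *Mcam* and *Abcc9*, were higher at an unadjusted p under 0.05, where 5.37% of all tested rows were. The other 4 named by the rule, *Acta2*, *Tagln*, *Myh11* and *Cnn1*, had log2 fold changes from -0.33 to -0.03, with 0 at that threshold. *Rgs5*, outside the filter, was 0.58, 0.46 and 0.59 FPKM in control and 0.15, 0.27 and 0.27 FPKM under the cKO label. Of the 8 adipose progenitor markers, 6 were tested and 1, *Cd24a*, was higher at an unadjusted p under 0.05, where 5.37% of all tested rows were. A lower mean log2 value under the cKO label was found for 4 of the 6, and for 6462 of all 11590 tested rows. *Pdgfra*, the receptor that marks mesenchymal progenitors, was 44.57, 49.46 and 59.18 FPKM in control and 60.14, 46.54 and 43.28 FPKM under the cKO label.

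**Figure D3:**
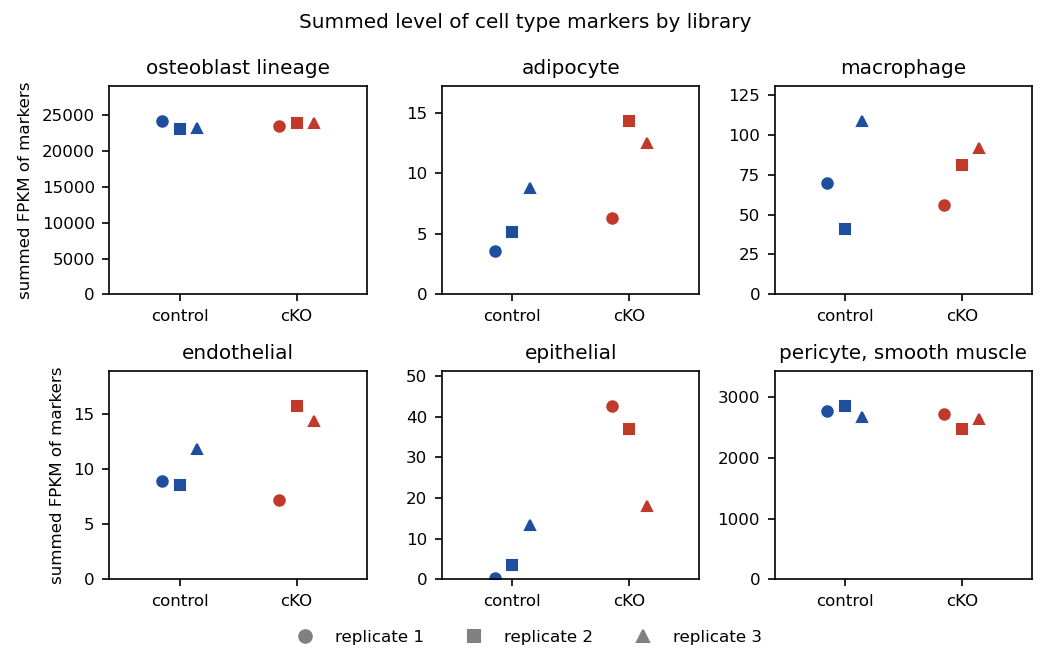
Summed FPKM of cell type markers (vertical axes, linear and starting at 0) in each library, by group, with symbols for replicates 1 to 3. The epithelial sums do not overlap between the groups, and the macrophage, endothelial, adipocyte and pericyte sums do.

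Because Y-linked genes were present in 1 control library and in 2 libraries labelled cKO, the differences were also taken within libraries of either kind. For *Fabp5* the log2 difference was 0.57 without and 0.55 with Y-linked expression, and for *Fabp4* it was 2.29 and 1.16. *Pparg* gave 0.57 and 0.14. *Lpl* gave 0.95 and -0.08, *Cebpb* 1.31 and -0.17, and *Cd36* 0.50 and -0.45, so these 3 members did not keep their direction. Neither did *Cebpa* (0.09 and -0.12), *Plin2* (-0.35 and 0.21) or *Adipoq* (-0.10 and 0.27), while *Cebpd* gave 0.15 and 0.26. Each of these values rests on 1 library against 2 and has no test. With Y-linked expression as a covariate in the fit, 3 members again had an unadjusted p under 0.05.

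The wider adipogenic program was then described from gene lists. Of 21 further factors that promote adipogenesis, 20 were tested. At an unadjusted p under 0.05, 4 were higher and 2 lower under the cKO label, where 5.37% of all tested rows were higher and 7.76% lower. The median log2 fold change was 0.08. *Klf15*, a Krüppel-like activator of *Pparg*, was 0.59, 0.3 and 1.05 FPKM in control and 1.05, 2.72 and 2.89 FPKM under the cKO label (log2 fold change 0.94, adjusted p = 0.312, limma), and it passed the filter mainly through the latter group. *Ebf2*, a marker of committed preadipocytes, was 0.91, 1.68 and 1.46 FPKM in control and 1.91, 2.06 and 2.5 FPKM under the cKO label. *Rxra*, the obligate partner of PPARγ, was lower under the cKO label, at 30.04, 30.48 and 30.21 FPKM in control and 26.33, 26.55 and 26.65 FPKM under the cKO label. That difference was small (log2 fold change -0.18, standard error 0.05, adjusted p = 0.312, limma) but both groups were very tight.

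Of 14 factors that restrain adipogenesis, 13 were tested. Where 5.37% of all tested rows were higher at an unadjusted p under 0.05, 1 of the 13 was. It was *Ddit3*, which encodes CHOP, a C/EBP family member that blocks other C/EBP factors and is induced by stress. Its FPKM was 24.77, 22.52 and 34.83 in control and 36.78, 135.9 and 145.06 under the cKO label. The library labelled cKO replicate 1 lay next to the controls, and the other two were far above them. *Dlk1*, or Pref-1, which keeps preadipocytes undifferentiated, was 37.51, 30.54 and 71.16 FPKM in control and 29.12, 34.97 and 50.1 FPKM under the cKO label, with overlap. In the list of the C/EBP name, which holds *Ddit3* and the 3 C/EBP members, 2 of 6 tested genes were higher at an unadjusted p under 0.05, the other being *Cebpg* (log2 fold change 0.40, adjusted p = 0.321, limma). Of all tested rows, 5.37% were higher at that threshold.

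**Figure D4:**
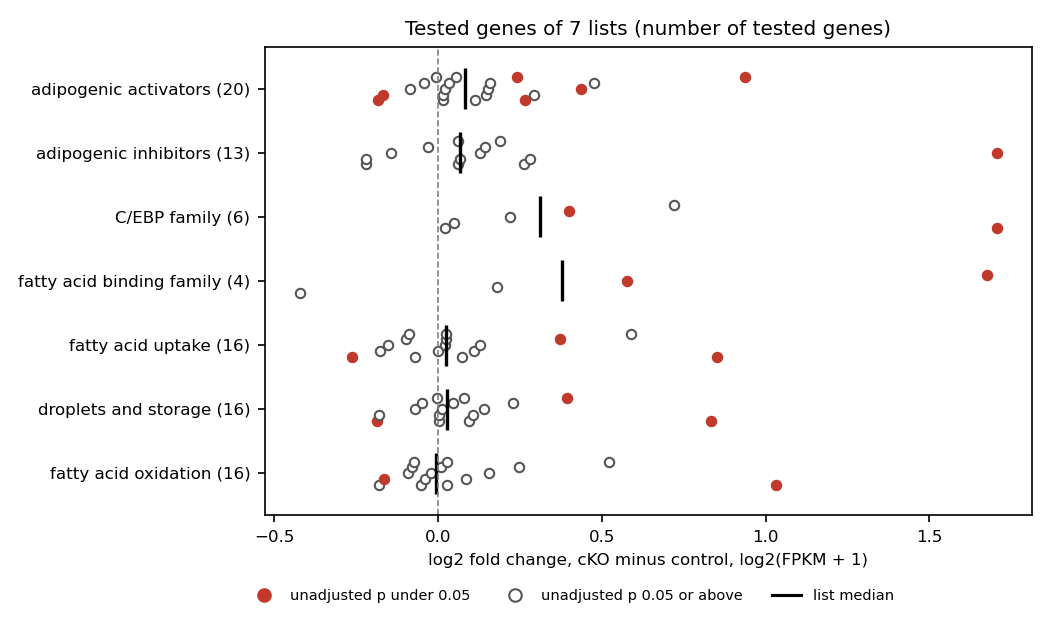
Log2 fold change on the log2(FPKM + 1) scale (horizontal axis, libraries labelled cKO minus control) of each tested gene in 7 lists, filled where the unadjusted p was under 0.05, with the list median as a bar. Medians lie between -0.01 and 0.08 for the activator, inhibitor, uptake, storage and oxidation lists, while *Fabp4*, *Ddit3* and *Acot2* lie above 1.

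Lists of fatty acid uptake, storage and oxidation genes had medians near that of all rows. At an unadjusted p under 0.05, 5.37% of all tested rows were higher under the cKO label and 7.76% lower. Of 20 uptake genes, 16 were tested, 2 were higher and 1 lower at an unadjusted p under 0.05, and the median log2 fold change was 0.02. *Vldlr*, a lipoprotein receptor, was 4, 3.37 and 5.24 FPKM in control and 4.86, 10.68 and 10.69 FPKM under the cKO label. *Slc27a1*, a fatty acid transporter, was 7.85, 7.18 and 8.08 FPKM in control and 8.83, 11.73 and 10.4 FPKM under the cKO label, while *Scarb1*, the HDL receptor, was the lower one (log2 fold change -0.26, adjusted p = 0.342, limma).

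Of 24 droplet and storage genes, 16 were tested, 2 were higher and 1 lower at an unadjusted p under 0.05, and the median was 0.03. *G0s2*, an inhibitor of fat breakdown, was 3.13, 4.1 and 3.5 FPKM in control and 3.95, 12.08 and 7.3 FPKM under the cKO label. *Dgat2*, which completes triglyceride synthesis, was 5.01, 5.21 and 4.55 FPKM in control and 5.26, 6.68 and 8.78 FPKM under the cKO label. *Plin3*, the other widely expressed droplet coat gene, was between 39.05 and 43.83 FPKM in all libraries.

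Of 19 oxidation genes that PPAR factors can induce, 16 were tested, 1 was higher and 1 lower at an unadjusted p under 0.05, and the median was -0.01. The higher one was *Acot2*, a mitochondrial thioesterase, at 4.11, 4.2 and 4.74 FPKM in control and 5.74, 12.8 and 13 FPKM under the cKO label. *Acot2* and its relative *Acot1* were also shown by the study from these libraries. In *Vldlr*, *G0s2*, *Dgat2*, *Acot2*, *Klf15* and *Ddit3* the library labelled cKO replicate 1 lay closest to the controls. *Fabp4* also had its lowest value under the cKO label in that library, 49.33 FPKM, but this lay well above the highest control, 22.45 FPKM. *Fabp4* and *G0s2* were highest in the library labelled cKO replicate 2, and the others of these genes in replicate 3. *Fabp5* had its highest value in the library labelled cKO replicate 1.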

How the data were processed

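RNA of 3 control and 3 cKO libraries was sequenced by the authors as 150 bp paired-end reads and mapped to the mouse transcriptome with HISAT2; the submitters' processing notes name GRCm38 and DESeq. The authors deposited FPKM for each gene and library with 2 decimals; the FPKM program, annotation release and use of strand are not given in the sources used here. All 6 columns were used. FPKM are not counts, so no count model was run. Values were taken as log2(FPKM + 1), which understates the change of low genes, and fitted in R 4.3.3 by the package limma 3.58.1 (moderated variances, no trend) over rows reaching 1 FPKM in 3 libraries. The script was tested on simulated data, and p-values were adjusted by Benjamini-Hochberg. The members, lists and tests were chosen with earlier results of these data known. From each list, the up to 4 tested genes with the smallest p and the 3 most abundant could be named. *Plin1*, *Cidec*, *Pecam1*, *Kdr*, *Pmp2*, *Fabp12*, *Cdh1*, *Krt5*, *Krt14*, *Rgs5* and *Plin4*, at low level, the macrophage and leukocyte genes outside the list and the neighbours of *Fabp4* and *Fabp5* were named after their values were seen. Loci are from GENCODE M21, promoters from RefSeq, both on GRCm38. Alternatives were pseudocount, filter, variance trend, scaling, replicate block, Y-linked covariate and each library left out.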

Additional observations from a re-analysis of the deposited data

How the results depend on the processing

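The number of genes at an adjusted p under 0.05 was 0 in all fits with 6 libraries and ran from 0 to 334 with 1 library left out, the latter without the library labelled cKO replicate 1; the 1521 genes at an unadjusted p under 0.05 then ran from 852 (without the library labelled cKO replicate 3) to 2459 (without cKO replicate 1), and numbered 927 and 926 when the first or the second control was left out and 956 without cKO replicate 2. *Fabp4* and *Fabp5* passed an adjusted p of 0.05 in 1 alternative, without cKO replicate 1. The members at an unadjusted p under 0.05 numbered 3 or 4 in all 15 alternatives, *Fabp4*, *Fabp5* and *Pparg* in each. The fourth was *Lpl* without control replicate 3, without cKO replicate 1 and with median-ratio scaling (unadjusted p 0.00775, 0.0306 and 0.0481, adjusted p 0.187 to 0.701 over the alternatives, limma), *Cebpd* without control replicate 2 (unadjusted p 0.0122, limma) and *Cebpb* with the replicate block. With 1 library left out, the log2 fold change ran from 1.44 to 1.83 for *Fabp4*, 0.53 to 0.60 for *Fabp5*, 0.28 to 0.42 for *Pparg*, 0.03 to 1.12 for *Cebpb*, 0.10 to 0.34 for *Cebpd*, 0.31 to 0.66 for *Lpl*, -0.074 to 0.094 for *Cebpa*, -0.093 to 0.32 for *Cd36* and -0.097 to 0.18 for *Plin2*. It changed sign for *Plin2* with TPM scaling (-0.0072) and for *Plin2* and *Cebpa* with the Y-linked covariate (-0.066 and -0.016). List medians moved to 0.12 for the fatty acid binding family without a filter, where 7 genes enter, and to 0.053 for droplet and storage genes with quantile normalization, and with 1 library left out ran from 0.068 (without control replicate 1) to 0.38 for the C/EBP list and -0.073 to 0.031 for oxidation genes. Beyond the fewer samples or other genes entered, the cause was not tested.

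The labels do not say whether same-numbered libraries were matched. The correlations of their departures from their own group's mean were 0.031, -0.17 and 0.21, and not every library correlated best with its own number. With 3 libraries per group, these values cannot decide whether libraries were matched. The replicate block took the standard error of *Cebpb* from 0.57 to 0.26 and that of *Fabp5* from 0.065 to 0.079. With the replicate block, 0 genes passed an adjusted p of 0.05, and the unadjusted p of *Cebpb* was 0.0373 with an adjusted p of 0.379 (limma). Scaling moved the median of all rows by less than 0.1. FPKM hides depth, so the counting error of *Adipoq*, *Cd36* and *Pparg* is unknown.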
